A study of Homo sapiens with 15 samples.

Results

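RNA of HCC1954, an established line of HER2-positive breast carcinoma, was sequenced from parental cells (Pa, 3 libraries) and from brain-tropic derivatives: cells of synchronous metastases (S-BM, 4 libraries), latent or residual cells (Lat, 4) and cells of metachronous metastases (M-BM, 4). The 4 S-BM libraries were divided by ERBB2, the gene for HER2, and both pairs were selected on its measured value. The HER2-high pair, S-BM 1 with S-BM 2, was chosen by values over 3000, and the HER2-low pair, S-BM 3 with S-BM 4, by values under 1000. These are 4 of the 15 libraries, and all 4 carry the label HER2+. Every group had been grown in the medium R3F, with an overnight culture before RNA extraction, so no library holds RNA taken directly from brain. The labels name no drug or engineered allele, and do not state whether a group's libraries were separate cultures, clones or animals. A test between labelled groups therefore measures the spread between these libraries, which may be technical.

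Values are normalized counts, the unit the authors deposited. Of 19845 names in the table, 9450 reached a value of 10 in 2 or more of the 4 S-BM libraries and were compared. A gene was counted as separated when the nearest libraries of the pairs were at least 2-fold apart on value + 1, a measure that asks for non-overlap and size together. The pairs were formed from ERBB2 in these same libraries, and each holds only 2, so the differences between the pairs are descriptions and carry no test. In bulk RNA, fewer cells expressing a gene and less RNA per cell cannot be told apart.

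HER2 is a receptor tyrosine kinase that has no ligand of its own and signals by pairing with EGFR, ERBB3 or ERBB4, feeding the ERK and PI3K cascades. In HER2-positive breast cancer its gene at 17q12 is amplified as part of a block of neighbours, which are overexpressed together. Basal epithelial cells of the breast are marked by keratins 5, 14 and 17 and luminal cells by keratins 8, 18 and 19; HCC1954 expresses keratins of both kinds.

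The HER2-high libraries held 17.55 and 20.05 M recovered reads and the HER2-low libraries 13.25 and 17.14 M, and 3 reads equalled a value of 0.152 to 0.225. S-BM 3 and S-BM 4 were close to each other: 1 of the 9450 genes was 2-fold apart between them. S-BM 1 and S-BM 2 were 2-fold apart in 128 genes, nearly as many as the 151 to 160 between S-BM 1 and the HER2-low libraries, while S-BM 2 differed from those in 290 to 314. Variation between S-BM 3 and S-BM 4 was 3.4 times sampling noise, against 33.63 times between S-BM 1 and S-BM 2, so the HER2-low pair may carry little more information than 1 library. Carcinoma markers (EPCAM, CDH1 and keratins 7, 8, 18 and 19) summed to 5550 to 5990 in the HER2-low pair and 5500 to 6160 in the HER2-high pair. Markers of brain cells were mixed: the astrocyte gene GFAP and the microglial gene AIF1 stood at or below 0.0582 and the pan-leukocyte marker PTPRC at or below 0.253 in all 4 libraries. Other listed markers were expressed, among them SLC1A3, a glutamate transporter of astrocytes, at 183 and 325 in the HER2-high pair against 173 and 173 in the HER2-low pair. TUBB3, a neuronal tubulin, stood at 38.3 and 62.5 against 63.7 and 62.4, and CD68, a macrophage protein, at 26.1 and 8.91 against 15.5 and 15.1. Summed over 5 astrocyte markers, nearly all SLC1A3, the HER2-high pair stood at 183 to 325 and the HER2-low pair at 173 to 174. For 5 neuron markers, mostly TUBB3, the sums were 50.6 to 71.1 and 76.0 to 77.8. For 5 oligodendrocyte markers, mostly MBP, they were 77.6 to 97.0 and 103 to 108.

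**Figure D1:**
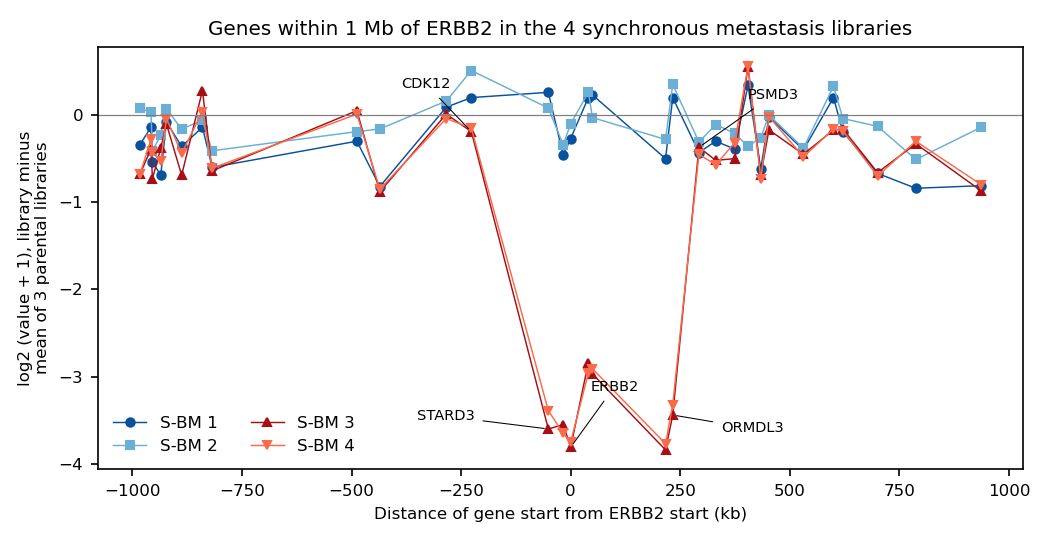
Genes within 1 Mb of ERBB2 that passed the filter, placed by the distance of their start from the ERBB2 start in kb; the y axis is log2 (value + 1) of each S-BM library minus the mean of the 3 Pa libraries, and lines join the genes of a library. From STARD3 to ORMDL3 the HER2-low libraries lie between −3.84 and −2.84 and the HER2-high libraries between −0.5 and 0.35.

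The split libraries differed around ERBB2 in a sharply bounded run of 7 genes. ERBB2 itself (chromosome 17, 39688094 to 39728658, GRCh38) stood at 4109 and 4642 in the HER2-high pair and at 353 and 367 in the HER2-low pair, which is the difference the pairs were made from. STARD3, a cholesterol carrier of late endosomes, stood at 727 and 638 against 49.2 and 57.0. ORMDL3, a regulator of sphingolipid synthesis, stood at 1952 and 2170 against 156 and 169. The adaptor GRB7, which binds HER2, stood at 1468 and 1226 against 159 and 165. PGAP3, a GPI-anchor remodelling enzyme, stood at 198 and 215 against 22.5 and 20.8, MIEN1 at 469 and 491 against 56.3 and 51.8, and the gasdermin GSDMB at 89.0 and 104 against 7.87 and 8.32. All 7 were separated at least 4-fold, with log2 differences from −3.66 to −3.04. The gene models of ERBB2 and MIEN1 overlap, and the library kit does not mark the strand, so reads from the shared stretch cannot be assigned between them.

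The borders were abrupt. CDK12, the transcription kinase on the centromeric side of the run, stood at 154 and 191 in the HER2-high pair and 117 and 120 in the HER2-low pair, a log2 difference of −0.53. PSMD3, a proteasome subunit on the telomeric side, stood at 121 and 131 against 126 and 119, which overlap. Within 1 Mb 31 genes passed the filter, with a median log2 difference of −0.28, and beside the run of 7 none was separated. TOP2A, the topoisomerase often amplified together with ERBB2, stood at 952 and 1386 against 961 and 932, also overlapping. Against the parental line, the HER2-high pair kept the run near the Pa level while the HER2-low pair lay far under it, as the plot of genes by distance from ERBB2 shows.

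Outside that 1 Mb window, 29 genes were separated with lower values in the HER2-low pair and 47 with higher values. The window is set by distance from ERBB2 and does not follow the borders of the band 17q12. ARHGAP23 (chromosome 17, 38419275 to 38512385), just beyond the window on the centromeric side, was among the higher genes. It stood at 20.9 and 19.8 in the HER2-high pair and 68.8 and 75.2 in the HER2-low pair. Over all 9450 genes the counts were 36 lower (0.381%) and 47 higher (0.497%), and at a 4-fold distance 12 lower (0.127%) and 6 higher (0.0635%). The pairs did not overlap in 3113 genes with lower (32.9%) and 2740 with higher values (29%), so non-overlap alone was common in these 4 libraries. The median log2 difference over all genes was −0.01. The 29 lower genes lay on 15 chromosomes and the 47 higher ones on 20. Next to the threshold, the galactolipid hydrolase GALC (2.05-fold between nearest libraries) and MGP (2.01) were counted as lower and SPRY1 (1.99) and PAPSS2 (1.95) were not. KRT17 (2.05) and NRSN2 (2.0) were counted as higher and TCEA2 (1.99) and COL4A1 (1.98) were not.

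**Figure D2:**
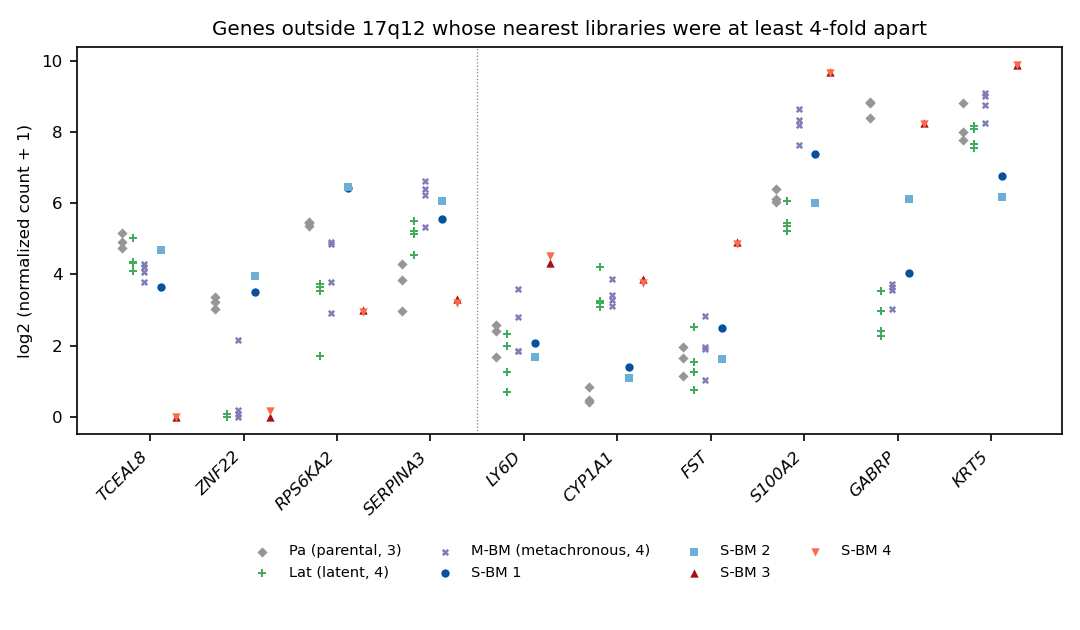
Genes outside the 1 Mb window around ERBB2 (titled as outside 17q12) whose nearest libraries were at least 4-fold apart. Shown are 4 lower and 6 higher in S-BM 3 and S-BM 4 (left and right of the dotted line). Each point is 1 library and the y axis is log2 (normalized count + 1). KRT5 and S100A2 in the HER2-low pair lie above all 11 libraries of the other groups, and TCEAL8 lies below all 11.

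At a 4-fold distance the lower genes outside the 1 Mb window were 5 in number, of which 4 are described. RPS6KA2 (chromosome 6, 166409364 to 166862773), a ribosomal S6 kinase activated by ERK, stood at 84.0 and 86.0 in the HER2-high pair and at 6.97 and 6.75 in the HER2-low pair, a 10.9-fold difference on value + 1. Its Pa values were 39.6 to 43.3, between the pairs, and its Lat values of 2.28 to 12.2 overlapped the HER2-low pair. SERPINA3, the acute-phase inhibitor antichymotrypsin (chromosome 14, 94612391 to 94624053), stood at 45.9 and 65.7 against 8.85 and 8.21. Here Pa (6.89 to 18.5) overlapped the HER2-low pair, and Lat (22.3 to 44.0) lay between the pairs.

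The other two were near 0 in the HER2-low pair and were named after their values were seen. TCEAL8 (chromosome X, 103252995 to 103255155), a member of an elongation-factor-like family, had 11.6 and 24.4 in the HER2-high pair and no read in S-BM 3 or S-BM 4. Against a floor of 3 reads per library this is at least 51.4-fold lower. All 11 other libraries had TCEAL8 values between 12.9 and 34.6. ZNF22 (chromosome 10, 45000923 to 45005326), a zinc-finger protein, stood at 10.4 and 14.5 against 0 and 0.116, the latter pair holding 2 reads in all, a ratio of 192 (95% counting interval 52.8 to 1590). It was also at 0 to 0.0554 in Lat and 0 to 3.47 in M-BM, and at 7.08 to 9.26 in Pa.

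The 6 genes that were higher at a 4-fold distance were led by KRT5. Keratin 5 is the type II keratin of basal epithelial cells (chromosome 12, 52514575 to 52520394). It stood at 107 and 70.9 in the HER2-high pair and at 937 and 945 in the HER2-low pair, a 10.7-fold difference. Pa (218 to 444), Lat (185 to 286) and M-BM (305 to 548) all lay between the pairs, so KRT5 was above the parental range in one pair and below it in the other. S100A2, a calcium-binding protein of basal and squamous epithelia (chromosome 1, 153561108 to 153565844), stood at 166 and 63.6 against 816 and 806, with 64.8 to 83.5 in Pa. GABRP, a GABA-A receptor subunit often high in basal-like tumours (chromosome 5, 170782720 to 170814047), stood at 15.4 and 68.1 against 304 and 298. In GABRP the HER2-low pair was near the Pa values of 333 to 452, and the HER2-high pair, Lat (3.85 to 10.6) and M-BM (7.19 to 12.3) were low.

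The 3 others had lower levels. FST, the activin antagonist follistatin (chromosome 5, 53480629 to 53487134), stood at 4.61 and 2.07 against 28.7 and 28.1, and did not exceed 6.11 in any Pa, Lat or M-BM library. CYP1A1 (chromosome 15, 74719542 to 74725528), the classical target of the aryl hydrocarbon receptor, stood at 1.65 and 1.11 against 13.6 and 12.6, and its Lat (7.55 to 17.5) and M-BM values (7.71 to 13.7) overlapped the HER2-low pair. LY6D, a keratinocyte surface antigen, stood at 3.19 and 2.18 against 18.9 and 22.1. CYP1A1 and LY6D were named after their values were seen.

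The promoter sequences of KRT5, the gene with the largest higher difference, and of AKR1C1 and AKR1C2, a neighbouring pair of lower genes described next, are shown for the 250 bases upstream of the RefSeq start, 5′ to 3′ on the strand of the gene (GRCh38.p14). In KRT5 capitals mark the 1 match to the 4 motifs named below, beginning at base 15. In AKR1C1 and AKR1C2 they mark the bases outside the longest stretch that the pair share, which is 245 bases long.
KRT5 at chr12:52520395-52520644 (minus strand): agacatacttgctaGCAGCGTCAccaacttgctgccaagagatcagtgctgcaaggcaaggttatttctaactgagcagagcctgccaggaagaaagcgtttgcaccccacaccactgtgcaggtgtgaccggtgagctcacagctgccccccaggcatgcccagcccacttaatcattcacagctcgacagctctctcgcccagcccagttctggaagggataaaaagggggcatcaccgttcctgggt
AKR1C1 at chr10:4963165-4963414 (plus strand): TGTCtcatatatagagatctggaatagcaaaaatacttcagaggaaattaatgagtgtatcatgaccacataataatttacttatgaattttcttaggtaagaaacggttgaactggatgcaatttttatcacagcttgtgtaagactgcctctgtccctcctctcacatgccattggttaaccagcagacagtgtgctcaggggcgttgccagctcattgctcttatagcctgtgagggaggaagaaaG
AKR1C2 at chr10:5003858-5004107 (minus strand): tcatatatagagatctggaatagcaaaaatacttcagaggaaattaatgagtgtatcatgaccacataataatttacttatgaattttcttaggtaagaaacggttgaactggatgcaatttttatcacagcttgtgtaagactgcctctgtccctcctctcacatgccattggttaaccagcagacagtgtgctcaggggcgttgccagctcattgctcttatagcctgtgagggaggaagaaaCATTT
The AKR1C1 and AKR1C2 stretches were 99.6% identical over 246 aligned bases.

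The only other run of 3 or more neighbouring separated genes beside the one at ERBB2 was on chromosome 10, between 4963415 and 5107686. It held AKR1C1, AKR1C2 and AKR1C3, aldo-keto reductases that reduce steroids and prostaglandins and are well-known targets of the oxidative-stress factor NRF2. AKR1C1 stood at 61.5 and 69.9 in the HER2-high pair and 15.4 and 11.4 in the HER2-low pair, AKR1C2 at 22.3 and 11.7 against 3.45 and 2.27, and AKR1C3 at 29.5 and 28.6 against 8.40 and 5.99. The HER2-low pair lay below the Pa range of each and overlapped Lat in each. Since these genes are nearly identical in places, reads can be divided wrongly among them and the 3 are not independent.

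Of the NRF2 list, 3 of 22 tested members were separated lower (these 3) and 1 higher, beside 0.381% and 0.497% of all genes. The list median was −0.26. GPX2, a glutathione peroxidase, was the higher one, at 8.55 and 14.6 against 36.3 and 33.0. The cystine transporter SLC7A11 stood at 194 and 130 against 98.0 and 102, short of a 2-fold distance. NQO1 (720 and 583 against 488 and 534) was lower by less, and NFE2L2, which encodes NRF2, overlapped (111 and 134 against 122 and 110).

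Among the lists that do not cover the ERBB2 neighbourhood, basal and squamous genes had the most separated members. Of 19 tested, 6 were higher at a 2-fold distance and 0 lower, beside 0.497% and 0.381% of all genes. The pairs did not overlap upward in 14, beside 29% of all genes, and the median log2 difference was 0.66, beside −0.01 over all genes. KRT5 and S100A2 led. TRIM29, a protein of basal and squamous epithelia, stood at 89.5 and 88.9 against 265 and 264. KRT6A, a keratin of activated epithelium that lies beside KRT5, stood at 45.2 and 36.1 against 120 and 126, and the abundant KRT17 at 1136 and 1206 against 2474 and 2503. The hemidesmosomal collagen COL17A1 stood at 12.5 and 10.1 against 29.8 and 30.1.

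The rest of the list was mixed. TP63, the transcription factor of basal cells, stood at 281 and 297 against 415 and 389, and the integrin ITGB4 at 320 and 333 against 507 and 526. KRT16 went the other way (35.2 and 42.8 against 22.3 and 25.1), and KRT15 overlapped (1664 and 2766 against 1850 and 1934). On chromosome 12, 9 neighbouring keratin genes from KRT80 to KRT4 did not overlap upward, beside 29% of all genes, with a median log2 difference of 0.91. The stretch came from a search for unbroken runs of such genes, so its shared direction follows from that choice. The longest run upward held 23 genes on chromosome 5. KRT7, which the luminal list holds, is among the 9. KRT6A, KRT6B and other type II keratins share long stretches, which leaves single levels uncertain.

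Of 18 luminal genes tested, 1 was separated lower, beside 0.381% of all genes, and the median was −0.10. The pairs did not overlap downward in 9 and upward in 4, beside 32.9% and 29% of all genes. The one was CEACAM6, a carcinoembryonic antigen family adhesion protein, at 101 and 161 against 41.5 and 38.4, with 555 to 786 in Pa. Keratin 8 overlapped (KRT8; 1091 and 1157 against 999 and 1111). E-cadherin (CDH1) stood at 836 and 840 against 681 and 711, and EPCAM at 279 and 245 against 202 and 186, both lower by less than 2-fold.

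**Figure D3:**
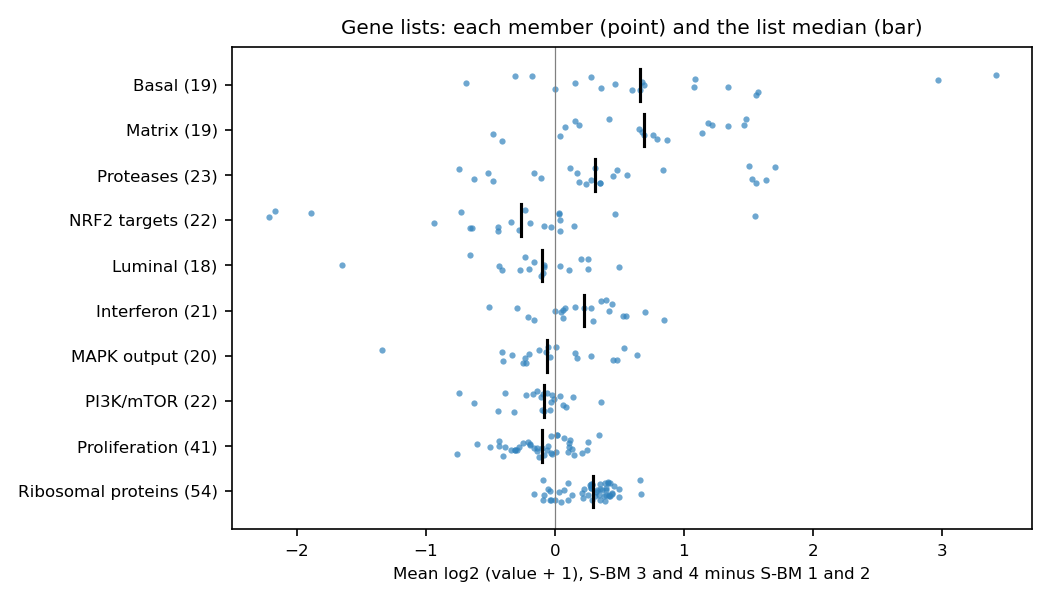
Log2 difference of the HER2-low minus the HER2-high pair for each tested member (points, shifted vertically to be visible) and the median (bars) of 10 gene lists, with the number of tested members in brackets. Basal and matrix medians stand at 0.66 and 0.69, and those of MAPK output, PI3K/mTOR and proliferation at −0.06, −0.08 and −0.10.

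Of 19 matrix genes tested, 4 were separated higher in the HER2-low pair and 0 lower, beside 0.497% and 0.381% of all genes. The pairs did not overlap upward in 13 and downward in 1, beside 29% and 32.9% of all genes. The median was 0.69. The basement-membrane collagen COL4A2 stood at 17.9 and 15.1 against 44.2 and 51.1, fibulin FBLN1 at 50.2 and 51.8 against 110 and 118, and the proteoglycan perlecan (HSPG2) at 10.4 and 5.57 against 22.6 and 23.4. COL17A1, which the basal list also holds, was the fourth. COL4A2 was at 0.668 to 1.14 in Pa, so both pairs lay above the parental line. Thrombospondin THBS1 (493 and 345 against 946 and 931) came close to a 2-fold distance, while fibronectin FN1 was lower (416 and 546 against 343 and 341).

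Proteases and their inhibitors had 4 of 23 members separated higher and 0 lower, beside 0.497% and 0.381% of all genes. The pairs did not overlap upward in 13 and downward in 3, beside 29% and 32.9% of all genes. The median was 0.31. PLAT, the tissue plasminogen activator, stood at 144 and 104 against 403 and 401. Its Pa values (246 to 415) overlapped the HER2-low pair, and Lat (7.96 to 9.49) and M-BM (9.22 to 50.4) lay below all S-BM libraries. The membrane metalloproteinase MMP14 stood at 10.1 and 9.41 against 29.7 and 30.5, MMP2, the gelatinase it activates, at 4.56 and 9.06 against 23.7 and 20.9, and ADAMTS15 at 8.20 and 11.3 against 26.7 and 32.2. Neighbouring roles were uneven: the inhibitor TIMP2 was lower (174 and 206 against 132 and 131).

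Among receptors, AXL, a kinase linked to mesenchymal state, stood at 50.02 and 7.03 in the HER2-high pair and 109 and 114 in the HER2-low pair. It was the 1 separated member of 17 other receptor tyrosine kinases tested, beside 0.497% of all genes separated higher. AXL stood at 4.61 to 9.27 in Pa and 329 to 433 in Lat. In AXL the HER2-high libraries differed from each other more than S-BM 1 did from the HER2-low pair. EGFR stood at 274 and 275 against 372 and 348, ERBB3 at 103 and 123 against 93.2 and 98.6, IGF1R at 109 and 113 against 137 and 141, and MET at 676 and 690 against 641 and 615. None of these 4 was separated. ERBB4 and the ligand NRG1 were at or below 0.175 in all 4 libraries.

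Outputs of the pathways downstream of HER2 showed 0 separated members. Of 20 ERK output genes the median was −0.06. The pairs did not overlap in 2 lower and 1 higher, beside 32.9% and 29% of all genes. DUSP6, the ERK phosphatase, overlapped (104 and 59.1 against 67.1 and 67.5), as did ETV4 (36.2 and 29.2 against 32.2 and 30.8), ETV5 (100 and 55.3 against 54.3 and 57.3), FOSL1 (21.5 and 6.88 against 19.64 and 19.96) and CCND1 (2187 and 1299 against 1576 and 1673). In these 5 genes the HER2-low values lay within, or at the edge of, the range of the HER2-high pair. SPRY1, an ERK-induced antagonist, lay just outside the threshold at 15.4 and 21.2 against 5.92 and 7.27, and MYC stood at 163 and 118 against 193 and 193. The 22 PI3K and AKT genes had a median of −0.08. RPS6KA2 and GAB2, a docking adaptor of receptor kinases (48.4 and 54.2 against 19.9 and 17.6), belong to neither list and were separated lower.

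Proliferation genes (41 tested) had 0 separated members and a median of −0.10, MKI67 standing at 230 and 329 against 203 and 215. Ribosomal protein genes also had 0 of 54 separated, but 38 did not overlap upward and 0 downward, against 29% of all genes upward, with a median of 0.30. Heat shock and ER chaperones had 14 of 24 without overlap downward, beside 32.9% of all genes (median −0.23), and nuclear respiratory chain genes 24 of 34 upward, beside 29% (median 0.22). Interferon-stimulated genes had 0 of 21 separated (median 0.23). Of these, 12 did not overlap upward and 3 downward, beside 29% and 32.9% of all genes.

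Some separated genes are known as markers of other cells. PECAM1, an endothelial and platelet adhesion molecule, stood at 10.6 and 11.2 in the HER2-high pair and 2.25 and 2.21 in the HER2-low pair. The 6 endothelial markers, PECAM1 among them, summed to 22.6 to 27.8 and 14.4 to 15.7, and CDH5 (7.86 and 11.3 against 8.25 and 8.21) was of like level in both. CSF1R, the macrophage colony-stimulating factor receptor, stood at 3.13 and 2.23 against 12.1 and 13.7, with the 6 microglia and leukocyte markers at 11.5 to 29.5 and 28 to 29.2 in sum. AIF1 was at 0 in all 4 libraries. Fibroblast markers summed to 34.1 to 46.1 against 57.8 to 58.5, of which FAP alone gave 30.9 and 42.0 against 53.2 and 51.3. The part of other cells in these differences was not tested.

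**Figure D4:**
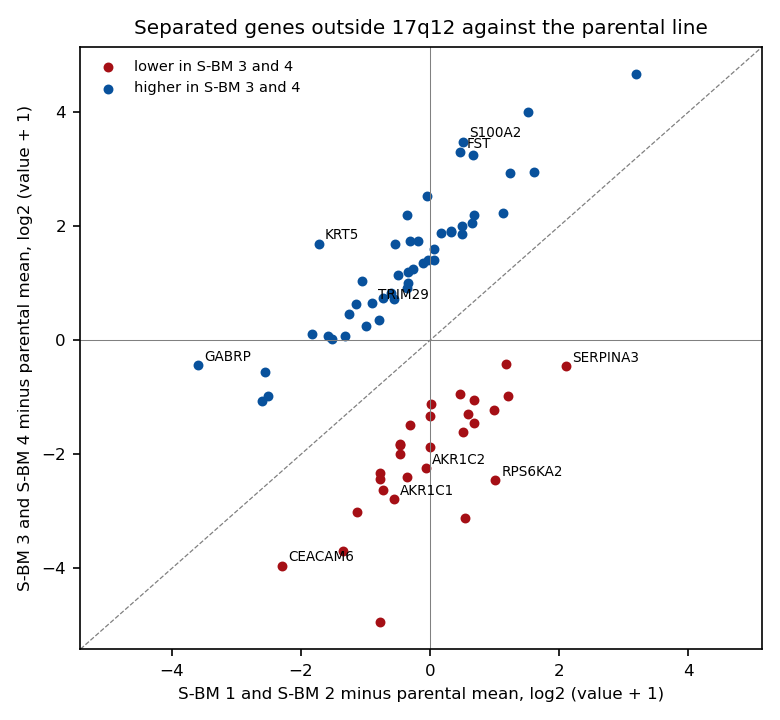
Separated genes outside the 1 Mb window around ERBB2 (titled as outside 17q12). Each is placed by its mean log2 (value + 1) minus the Pa mean in the HER2-high pair (x) and the HER2-low pair (y). The dashed line marks equal values. Most lower genes lie nearer 0 on the x axis than on the y axis, KRT5 lies on opposite sides of the parental level in the pairs, and GABRP and SERPINA3 lie near the parental level in the HER2-low pair.

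The parental libraries, which the split did not use, gave a level to set beside each pair. They stand in a table of their own and were scaled by 1.01, so they serve as levels only. A pair counted as outside the Pa range only when both of its libraries were at least 2-fold beyond it on the same side. S-BM 1 and S-BM 2 lay further apart than S-BM 3 and S-BM 4, so the HER2-high pair met this rule less easily. The rule was applied to the separated genes alone. Of the 29 lower genes, the HER2-low pair alone was at least 2-fold outside the Pa range in 19, the HER2-high pair alone in 2 (SERPINA3 and PIP5K1B), both in 2 (CEACAM6 among them) and neither in 6. Of the 47 higher genes, the HER2-low pair alone was outside in 22, the HER2-high pair alone in 9, both in 2 (KRT5 and COL4A2) and neither in 14. GABRP, MMP14, OXTR, GPX2 and PLAC8 were among the 9 in which the HER2-high pair stood away from Pa. Below all 11 Pa, Lat and M-BM libraries stood the HER2-low values of 11 of the 29 lower genes, such as TXNIP, S100P and PARP8. Above all 11 stood those of 24 of the 47 higher genes, such as KRT17, TRIM29, KRT6A and TFPI.

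TXNIP, an inhibitor of thioredoxin and of glucose uptake, stood at 71.2 and 40.1 against 16.6 and 18.4, with 79.0 to 110 in Pa. S100P, a calcium-binding protein of many carcinomas, stood at 192 and 47.0 against 21.3 and 21.2. TFPI, the inhibitor of tissue factor, stood at 52.2 and 12.1 against 159 and 151, with 20.8 to 33.1 in Pa. In S100P and TFPI the HER2-high libraries lay far apart from each other, so the distance to the HER2-low pair depended on which of them it was taken from.

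The other brain-derived groups did not side uniformly with either pair. Among the 29 lower genes, Lat and M-BM ranges were both nearer to the HER2-low pair in 16 and both nearer to the HER2-high pair in 11. Among the 47 higher genes, they were both nearer to the HER2-low pair in 14 and to the HER2-high pair in 28. RPS6KA2, AKR1C1, AKR1C3, CEACAM6 and PIGR belonged to the first 16. ERBB2 itself stood at 2836 to 3775 in Lat and 2801 to 4184 in M-BM, and its part in these levels was not tested. PIGR, the polymeric immunoglobulin receptor, stood at 16.6 and 43.7 against 4.05 and 5.06, at 42.1 to 91.9 in Pa and at 0 to 0.873 in Lat. CYP1A1, AXL, CHST3, COL17A1 and MMP2 belonged to the 14; the sulfotransferase CHST3 stood at 15.7 and 12.04 against 62.0 and 59.0, with Lat at 46.0 to 49.2.

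The Lat and M-BM libraries, which the split did not use, allowed a test of the same genes between labelled groups. In limma over these 8 libraries, 5 of 9230 tested genes passed an adjusted p of 0.05 (0.0542%), 4 higher in M-BM (0.0433%) and 1 lower (0.0108%), and 1050 had an unadjusted p under 0.05 (11.4%). Of the 83 separated genes, 55 were tested, 1 passed and 18 (32.7%) had an unadjusted p under 0.05. The 28 others were below the filter in Lat and M-BM. S100A2 was the 1 that passed: it stood at 36.4 to 65.6 in Lat and 195 to 395 in M-BM, with a log2 fold change of 2.67 (SE 0.22) and limma adjusted p = 0.000932. It was higher in 4 of 4 M-BM libraries than in any Lat library, and both groups lay below the HER2-low pair. KRT5 did not pass (236 in Lat and 449 in M-BM on average, log2 fold change 0.92, limma adjusted p = 0.118), nor did ERBB2 (−0.002, 0.998). With all 12 brain-derived libraries in the fit, S100A2 lost its call at the same fold (limma adjusted p = 0.145).

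**Figure D5:**
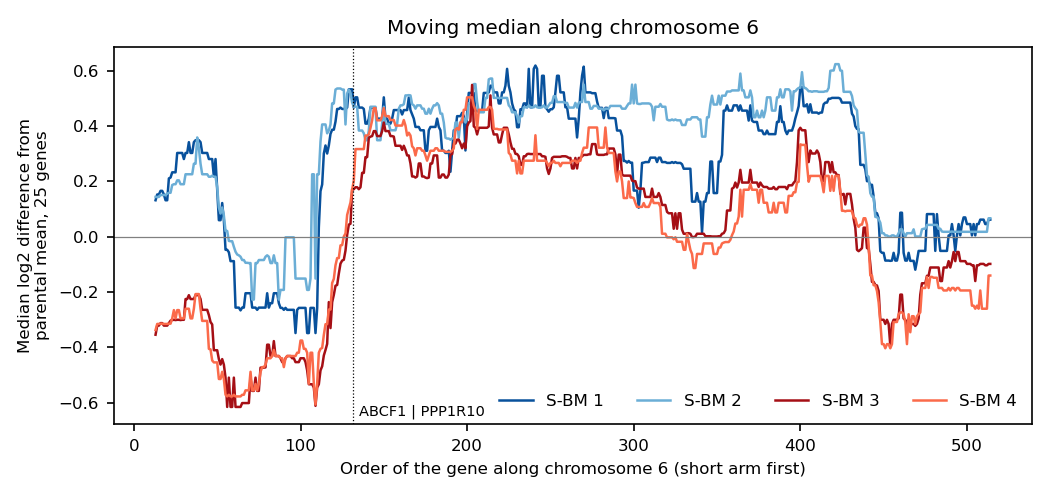
Moving median over 25 neighbouring genes of each S-BM library's log2 (value + 1) minus the Pa mean, in gene order along chromosome 6 and centred on the median of all genes. Red lines (S-BM 3 and S-BM 4) run below blue lines (S-BM 1 and S-BM 2) over most of the chromosome and meet them after the dotted line between ABCF1 and PPP1R10.

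Position showed a broader pattern of small differences on chromosome 6. Of 526 chromosome 6 genes, 353 did not overlap downward (67.1%, beside 32.9% of all genes) and 36 upward (6.84%), with a median log2 difference of −0.27, the lowest of any chromosome. On it lay 3 of the 29 separated lower genes, RPS6KA2 and TMEM170B among them, and 2 of the 47 higher ones, ELOVL4 and HIST1H4I. The chromosome held 526 of the 9358 compared genes with a known position. Among moving windows of 25 genes, which overlap and so share genes, 49 of the lowest 50 were on chromosome 6. From the first gene to ABCF1 (chromosome 6, 485154 to 30591522) 112 of 131 genes did not overlap downward, with a median of −0.53. The 22 genes from ZNF165 to ABCF1, picked as an unbroken run of genes that did not overlap downward, had a median of −0.68.

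The shift paused at one gene border and returned further along. ABCF1 stood at 194 and 158 against 117 and 121, and its neighbour PPP1R10 at 85.8 and 100 against 102 and 96.8. Over the 64 genes from PPP1R10 to TAPBP the median was −0.08, with 23 not overlapping downward and 9 upward. Over all 395 genes from PPP1R10 to the last gene of the chromosome it was −0.23, with 241 (61%) not overlapping downward and 33 upward. These borders were drawn after the values were seen. Against Pa, the stretch up to ABCF1 stood at 0.06 and 0.15 in the HER2-high pair and −0.41 and −0.41 in the HER2-low pair, with Lat at −0.20 to −0.09 and M-BM at −0.29 to −0.16. From ZNF165 to ABCF1 it was the HER2-high pair that stood apart (0.44 and 0.53), with −0.19 and −0.13 in the HER2-low pair and −0.10 to 0.04 in Lat. Copy number was not measured.

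Promoter letters were compared as a description. RefSeq windows of 250 bases before and 50 after the start matched 15 of the 29 lower and 23 of the 47 higher genes, beside 22114 promoters in all, and both strands were searched. The AP-2 motif GCCNNNGGC was in 4 lower (26.7%) and 9 higher (39.1%) against 22.4% of all. The AP-1 motif TGANTCA was in 0 lower and 3 higher (13%) against 8.05%. The antioxidant response element core TGACNNNGC, which NRF2 binds, was in 3 lower (20%) and 3 higher (13%), KRT5 and GPX2 among the higher, against 13.5%. The AHR core TNGCGTG was in 0 of either against 5.32%. AP-2 is a factor of keratin and ERBB2 promoters. The counts are small and no match shows binding.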

How the data were processed

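The deposited signal values are normalized counts per gene; the authors made them by a method not given in the sources used here, as are the read counter and annotation. The alignment used Bowtie 0.12.2 and GRCh38 per the submitters' processing notes, and libraries were made with RNeasy RNA and TruSeq RNA v2 per the labels' protocols. The parental libraries come from a separate table. Each column held whole multiples of 1 step, so reads were recovered (100% of values whole within 0.05 reads), 13.25 to 21.84 M per library; floors and intervals cover counting error only.

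From these values the pairs were formed by ERBB2, genes with a value of at least 10 in 2 of 4 S-BM libraries were kept, and distances were taken on value + 1, with no test. The parental columns were rescaled by 1.01 (median gene ratio to the other libraries). M-BM was compared with Lat by limma 3.58.1 (R 4.3.3) with a variance trend on log2(value + 1), two-sided with Benjamini-Hochberg adjustment, for genes at 10 or more in 4 of 8 libraries. The counts test that suits recovered reads (edgeR 4.0.16, DESeq2 1.42.0) was run as an alternative. Both scripts were tested on simulated data. Positions came from a GRCh38 RefSeq table, which matched 19071 of 19845 names; 27 names had been turned into dates.

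Same-numbered Lat and M-BM libraries had residual correlations of −0.148 to 0.345, and were treated as unpaired. The members and the 44 gene lists were chosen with earlier results of these data known. Named were genes at a 4-fold distance whose mean in the higher pair reached the median (up to 12 per direction), genes within 1 Mb of ERBB2, up to 3 separated members per list, members of runs and a fixed set of signalling and epithelial genes; others were chosen after their values were seen. Alternatives were other pseudocounts, filters and scalings, each library left out, and S-BM 3 and S-BM 4 averaged, the last added after seeing the data. Some items are not reported here.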

Additional observations from a re-analysis of the deposited data

Results flagged for a closer look

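Within groups of 4 libraries, 232 sets of values of the named genes were examined for 1 library far from the other 3, and 20 were found, where chance gives about 1 in 20. S-BM 2 stood apart in 6 of them: FBXL20 (70.5, others 42.3 to 44.2), TOP2A (1390, others 932 to 961) and SMARCE1 (140, others 83.8 to 88.2), all within 1 Mb of ERBB2, PIK3CA (88.9, others 76.3 to 77.3), SOX2 (11.4, others 2.55 to 2.62) and FOSL1 (6.88, others 19.6 to 21.5). S-BM 1 stood apart for S100P (192, others 21.2 to 47.0) and ETV5 (100, others 54.3 to 57.3), and S-BM 3 for CASC3 (106, others 117 to 119). In these genes the widest gap therefore did not run between the HER2-high and the HER2-low pair.

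Lat 3 stood apart for COL4A2 (43.5, others 12.2 to 14.6), ADAMTS15 (16.3, others 9.09 to 9.28), CYP1A1 (17.5, others 7.55 to 8.44), NR1D1 (57.5, others 16.5 to 21.6), FOSL1 (247, others 174 to 179) and VIM (37.0, others 5.65 to 6.06), and Lat 4 for CEACAM6 (14.1, others 6.2 to 6.99). M-BM 4 stood apart for CEACAM6 (31.2, others 2.36 to 5.2) and LMAN1 (26.8, others all at 0), M-BM 2 for ERBB2 (4180, others 2800 to 3000) and M-BM 1 for MKI67 (170, others 208 to 209).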

How the results depend on the processing

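All 33 separated genes named by the rule or at a 4-fold distance kept the sign of their log2 difference under the 9 settings with another pseudocount, scaling or set of libraries. A pseudocount of 5 left 23 lower and 34 higher genes at 2-fold, 3 higher at 4-fold and 1 run of neighbours, the 17q12 one, and gave −0.485 for chromosome 6 up to ABCF1. A filter at 1, or none, gave 106 lower and 77 higher genes at 2-fold and 20 lower at 4-fold. With no filter, runs numbered 4 and the medians were −0.169 for chromosome 6 and −0.425 up to ABCF1; DESeq2 size factors gave −0.514 for the latter. Averaging S-BM 3 with S-BM 4 left 3 higher genes at 4-fold. The filter was applied anew to the columns left, and FST, CYP1A1 and LY6D, under 10 in both HER2-high libraries, no longer passed it. Their differences did not shrink. Leaving out each S-BM library gave 23 (without S-BM 2) to 90 (without S-BM 1) lower and 33 (without S-BM 3) to 119 (without S-BM 1) higher genes at 2-fold. At 4-fold it gave 7 (without S-BM 2) to 14 lower, 3 (without S-BM 3 or S-BM 4) to 15 (without S-BM 1) higher, and −0.524 to −0.472 up to ABCF1. The filter was applied anew here too, so a smaller count does not by itself mean smaller differences. At a 4-fold distance from Pa, 20 genes in place of 41 had only the HER2-low pair outside.

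For M-BM against Lat, calls higher and lower were 8 and 5 with all 12 libraries, 13 and 5 with a filter at 1, 5 and 6 with none, 7 and 1 after quantile normalization, 4 and 1 in edgeR, and 96 and 65 in DESeq2. Leaving out each library gave 2 (without Lat 2) to 9 (without Lat 3) higher and 0 (without Lat 1 or Lat 2) to 4 (without M-BM 1) lower calls. The fit with the replicate number as a block gave 18 and 7. Whether the numbers pair these libraries was not established, and 4 of 8 correlated best with their own number. S100A2 kept its call in 16 of 17 settings (log2 fold change 2.53 to 2.87, adjusted p 1.5e-30 to 0.145). No paired analysis was possible between the HER2 pairs because both belong to 1 labelled group. The cause of these changes was not tested.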
